A study of Mus musculus with 9 samples.

Results

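The sphingosine-1-phosphate system is described here through Spns2 and 8 other genes, Spns1, Sphk1, Sphk2, S1pr1, S1pr2, S1pr3, Sgpl1 and Sgpp1, which are 9 of the 19240 genes in the table. The members were taken by their gene symbols and roles, as transporters, kinases, receptors or degrading enzymes of sphingosine-1-phosphate. Spns1 was listed with them, although it is described below as a transporter of lysophospholipids. Spns2 was selected on its FPKM in these libraries, which was much lower in both mutant groups, so its values are given as a description with no test. RNA-seq was performed on 9 mouse libraries, 3 in each of 3 groups, to ask how the transcriptome differs when single residues of S100A8, a small calcium-binding protein of myeloid cells, are mutated. OEA8_Ctrl is the overexpression control, OEA8_67 carries S100A8 mutated at residue 67, and OEA8_69 carries S100A8 mutated at residue 69. The labels leave unnamed what the control construct held, and in the study the mutants are set against fibroblasts that overexpress unmutated S100A8. Whether separate cultures gave the 3 libraries of a group is not in the labels. The p-values therefore reflect the spread among libraries alone, and this may be technical. The labels call the cells hematopoietic stem cells, whereas the study describes mouse embryonic fibroblasts. No age, drug or time distinguishes the groups in the labels.

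Sphingosine-1-phosphate, abbreviated S1P, is a signalling lipid made inside cells from sphingosine, a breakdown product of ceramide. Sphingosine kinases add the phosphate, transporters carry the lipid out of the cell, G-protein-coupled receptors on the same or other cells sense it, and a lyase and phosphatases remove it. Its best known roles are to guide lymphocytes out of lymphoid organs into lymph and blood, and to maintain the barrier of the endothelium. Spns2 is the exporter that endothelial cells use to supply S1P to lymph.

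Levels are given in FPKM, that is, fragments counted per kilobase of transcript and scaled to the total mapped in a library, so that genes can be compared per length. The FPKM of a library summed to 469909 at the least and 501342 at the most, with 15800 to 16179 genes detected above 0. Pearson's r of log2(FPKM + 1) across genes lay between 0.997 and 0.999 within groups and between 0.996 and 0.998 between groups. No library stood apart by this measure. Leaving out OEA8_Ctrl replicate 3 raised the share of tested genes passing limma from 9.79% to 14.9% in OEA8_69 against OEA8_Ctrl. Between the mutants that share rose from 3.16% to 8.63%. Of 12 fibroblast markers 11 reached a mean of 1 FPKM, and the median of the 12 was 94.9, whereas of 11 hematopoietic markers with values only Runx1 reached it. Kit, the receptor that marks hematopoietic stem cells, was listed at 0.02 FPKM or less in every library, which goes against the tissue label. S100a8, the gene mutated or overexpressed, was listed at 4.1, 3.98 and 6 FPKM in OEA8_Ctrl, at 5.95, 4.54 and 6.24 in OEA8_67, and at 3.75, 6.24 and 5.44 in OEA8_69. The 3 groups overlapped in S100a8, and its values therefore do not tell the constructs apart. Averaged over the libraries, 28.0% of tested genes stood lower than S100a8, and these values do not show overexpression in any group.

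Spns2 (gene 216892, chromosome 11, 72451638 to 72489976, GRCm38) was listed at 7.72, 7.17 and 6.83 FPKM in the 3 OEA8_Ctrl libraries. It stood at 0.97, 0.77 and 0.87 FPKM in OEA8_67 and at 0.43, 0.57 and 0.39 FPKM in OEA8_69. No library of one group reached the range of another, and the order was control, then residue 67, then residue 69. The group means were 7.24 ± 0.449, 0.87 ± 0.1 and 0.463 ± 0.0945 FPKM (SD, n = 3 libraries each). The level in OEA8_67 was 12.02% of that in OEA8_Ctrl, the level in OEA8_69 was 6.40% of it, and OEA8_69 stood at 53.3% of OEA8_67. On the log2(FPKM + 1) scale, which understates the change of low genes, the difference of Spns2 from the control was -2.14 (SE 0.08) in OEA8_67 and -2.49 (SE 0.08) in OEA8_69. By this difference it ranked 4 from the lowest of 12012 tested genes against OEA8_Ctrl in each mutant, and 67 from the lowest between the mutants. The 2 comparisons with OEA8_Ctrl share the same control libraries, so those ranks are not independent of each other. Spns2 was selected for its low values in both mutants, so a rank near the lowest against the control repeats that selection. The RNA is from bulk cells, in which fewer cells of a type and less RNA per cell cannot be told apart.

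**Figure D1:**
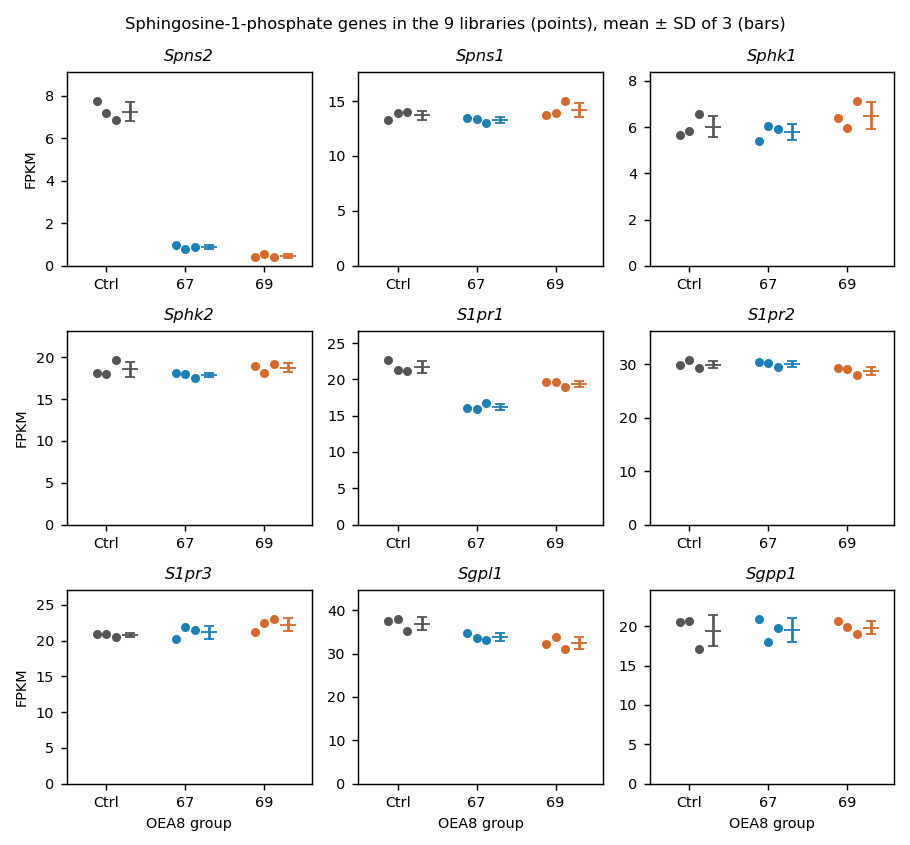
FPKM (vertical axes, each from 0) of the 9 genes of the S1P system in the OEA8_Ctrl, OEA8_67 and OEA8_69 libraries; points are libraries, bars are the mean ± SD of 3. Spns2 lies between 6.83 and 7.72 FPKM in OEA8_Ctrl and at 0.97 or less in both mutants, S1pr1 lies lowest in OEA8_67, and the other genes differ far less.

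Most markers of endothelial cells were lower in the same libraries. Of 18 listed endothelial markers 17 had values, 7 averaged at least 1 FPKM, and 15 had a lower mean in each mutant than in OEA8_Ctrl. Their summed level was between 108.4 and 112.5 FPKM in OEA8_Ctrl, between 37.5 and 39.0 in OEA8_67 and between 31.5 and 35.7 in OEA8_69. In OEA8_Ctrl the sum was led by Erg and Eng, and in both mutants by Eng. Erg averaged 42.8 ± 0.966, 6.35 ± 0.695 and 3.51 ± 0.356 FPKM in OEA8_Ctrl, OEA8_67 and OEA8_69, and Eng 28.0 ± 1.38, 20.3 ± 0.124 and 18.7 ± 1.04. Pecam1 and Kdr were low, with means of 0.643 and 0.423 FPKM in OEA8_Ctrl, 0.107 and 0.0733 in OEA8_67, and 0.137 and 0.04 in OEA8_69. The markers without a lower mean in the mutants were Vwf, with means of 0.0667, 0.09 and 0.0867 FPKM in OEA8_Ctrl, OEA8_67 and OEA8_69, and Esam, with 0.0667, 0.0767 and 0.0733 FPKM. Vwf, Esam, Tek and Sox17 were near 0 in every group and overlapped between each mutant and the control. Tie1 and Sox17 were listed at 0 in every mutant library, but did not exceed 0.08 and 0.02 FPKM in OEA8_Ctrl either. No count of called markers is given, since some passed the filter on low values only through the control group. Cdh5, the endothelial cadherin, averaged 11.3 ± 0.569 FPKM in OEA8_Ctrl, 0.797 ± 0.0764 in OEA8_67 and 0.4 ± 0.139 in OEA8_69. The 4 lymphatic endothelial markers with values summed to between 64.6 and 67.9 FPKM in OEA8_Ctrl, between 41.7 and 45.3 in OEA8_67, and between 31.2 and 35.2 in OEA8_69. Nearly all of that sum was Pdpn, which fibroblasts also express, at 63.3 ± 1.80, 42.6 ± 1.79 and 32.8 ± 1.96 FPKM. Flt4, a receptor of lymphatic endothelium, lay between 2.3 and 2.67 FPKM in OEA8_Ctrl, between 0.68 and 0.74 in OEA8_67 and between 0.45 and 0.5 in OEA8_69, and Lyve1 and Prox1 did not exceed 0.43 and 0.04 FPKM in any library. Whether endothelial cells were present was not tested, nor was any part they had in the level of Spns2. The fibroblast markers summed to between 4585 and 4876 FPKM in OEA8_Ctrl, between 4148 and 4379 in OEA8_67 and between 4496 and 4608 in OEA8_69, a sum led by Col1a1, Col1a2 and S100a4. Of 11 fibroblast markers tested, 5 were called lower in OEA8_67, beside 4.66% of all tested genes, and 3 lower and 1 higher in OEA8_69, beside 5.24% and 4.55%. Dcn, Pdgfra and Postn, genes of the fibroblast matrix and surface, fell in both, and Lum and Thy1 were called lower in OEA8_67 only. Fbln1 was the marker called higher in OEA8_69, at 76.9 ± 1.76 FPKM beside 61.25 ± 4.41 in OEA8_Ctrl (limma adjusted p = 0.00140). Col1a1, Col1a2, Col3a1, Pdgfrb and S100a4 were called in neither mutant against the control. The hematopoietic markers summed to between 5.07 and 5.92 FPKM over all libraries, and Ptprc, the pan-leukocyte gene, was listed at 0 in OEA8_Ctrl. The 6 red cell and platelet markers summed to between 1.54 and 2.70 FPKM. Most of this was Itga2b, at 1.44 ± 0.19, 1.80 ± 0.0917 and 2.10 ± 0.159 FPKM in OEA8_Ctrl, OEA8_67 and OEA8_69. Itga2b, the only 1 of the 6 that was tested, was called higher in OEA8_69 (limma adjusted p = 0.0123), beside 4.55% of all tested genes. It was not called in OEA8_67 (limma adjusted p = 0.127).

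The promoter windows of Spns2 and of its paralogue Spns1 are printed because these related transporters differed in how their levels compared between the groups. The windows come from RefSeq on GRCm38.p6, run from 250 bases before to 50 bases after an annotated start, and are written 5′ to 3′ on the minus strand, from which both genes are read. Capitals mark GGAA, the core bound by ETS factors, and AGATAA, a site bound by GATA factors, on either strand, where the opposite strand reads TTCC and TTATCT.
Spns2, chr11:72474978-72475277: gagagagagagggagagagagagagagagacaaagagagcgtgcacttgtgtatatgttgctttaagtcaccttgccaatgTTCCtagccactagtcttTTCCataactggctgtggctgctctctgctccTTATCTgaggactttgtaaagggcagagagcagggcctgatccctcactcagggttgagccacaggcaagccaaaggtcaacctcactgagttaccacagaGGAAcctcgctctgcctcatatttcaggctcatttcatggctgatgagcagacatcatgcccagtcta
Spns1, chr7:126377885-126378184: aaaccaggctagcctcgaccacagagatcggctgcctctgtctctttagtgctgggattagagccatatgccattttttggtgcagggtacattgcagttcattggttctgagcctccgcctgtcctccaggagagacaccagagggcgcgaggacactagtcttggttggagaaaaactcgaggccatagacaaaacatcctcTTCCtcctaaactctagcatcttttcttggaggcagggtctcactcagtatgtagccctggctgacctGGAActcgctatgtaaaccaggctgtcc
The Spns2 window lies at an internal start, 14949 bases from the outer start of the gene, while the Spns1 window is at the outer start, and which start the cells used was not measured. The Spns2 window held 3 matches to GGAA, 1 to AGATAA and 1 to the E-box letters CANNTG, and the Spns1 window held 2, 0 and 1. The motifs do not overlap one another in these windows. Of all 32851 windows of this length, 96.0% held GGAA, 11.2% held AGATAA and 72.3% held CANNTG. Windows were found for 8 of the members, 13 windows in all. Every one of the 13 held GGAA, 3 held AGATAA, in Spns2 and Sphk1, and 9 held CANNTG, in 7 genes. A match describes the letters only.

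Spns1 (gene on chromosome 7, 126370060 to 126377934) is a lysosomal transporter of lysophospholipids and the closest relative of Spns2 among the members. It was listed at 13.25, 13.9 and 13.97 FPKM in OEA8_Ctrl, at 13.47, 13.39 and 12.98 in OEA8_67 and at 13.77, 13.93 and 14.96 in OEA8_69. Its libraries overlapped between each mutant and the control, with log2 differences of -0.04 (SE 0.05, limma adjusted p = 0.626) and 0.05 (SE 0.05, limma adjusted p = 0.579). The 95% intervals of these differences ran from -0.15 to 0.06 and from -0.06 to 0.15. Spns2 thus amounted to 52.9 ± 4.83% of Spns1 in FPKM in OEA8_Ctrl, to 6.55 ± 0.737% in OEA8_67 and to 3.27 ± 0.754% in OEA8_69 (SD, n = 3).

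Among the 8 members other than Spns2, all of which passed the filter on low values, 1 was called in each comparison, by an adjusted p under 0.05 over all tested genes. It was S1pr1, lower, in OEA8_67 against OEA8_Ctrl, where 7.88% of all tested genes were called, 3.21% higher and 4.66% lower. In OEA8_69 against OEA8_Ctrl it was Sgpl1, lower, where 9.79% were called, 4.55% higher and 5.24% lower. In OEA8_69 against OEA8_67 it was S1pr1, higher, where 3.16% were called, 1.89% higher and 1.27% lower. With 8 genes a single call is near these shares, and nothing is read from the counts. The median log2 differences of the 8 were -0.05, 0.02 and 0.07, beside 0.02, 0.02 and -0.002 over all tested genes. The libraries of the compared groups did not overlap for 2, 3 and 4 of the 8 genes, beside 28.2%, 27.5% and 31.6% of all tested genes.

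Sphingosine is phosphorylated by the products of Sphk1, a mainly cytoplasmic kinase, and Sphk2, a kinase also found in the nucleus and mitochondria. Sphk1 (chromosome 11, 116530836 to 116536675) was listed at 5.68, 5.84 and 6.56 FPKM in OEA8_Ctrl, at 5.39, 6.04 and 5.91 in OEA8_67 and at 6.4, 5.95 and 7.11 in OEA8_69. Sphk2 (chromosome 7, 45709463 to 45718002) was listed at 18.08, 18.02 and 19.62 FPKM in OEA8_Ctrl, at 18.11, 17.96 and 17.55 in OEA8_67 and at 18.99, 18.15 and 19.14 in OEA8_69. Both kinases overlapped between each mutant and the control. Sphk2 did not overlap between the mutants, with a log2 difference of 0.07 (limma adjusted p = 0.474). Sphk1 stood at 32.4 ± 1.01% of Sphk2 in OEA8_Ctrl, at 32.4 ± 2.25% in OEA8_67 and at 34.5 ± 2.30% in OEA8_69 (SD, n = 3). Neither kinase was called in any comparison. Between the mutants Sphk1 had a log2 difference of 0.14 with a 95% interval from -0.02 to 0.30.

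The S1P receptors differ in the G proteins they use, S1pr1 coupling to Gi alone and S1pr2 and S1pr3 also to Gq and to the Gna12 and Gna13 family. S1pr1 (chromosome 3, 115710433 to 115715055), the receptor that lymphocytes need to leave lymphoid organs and that stabilises endothelial junctions, was listed at 22.61, 21.34 and 21.12 FPKM in OEA8_Ctrl. It stood at 16.0, 15.86 and 16.7 FPKM in OEA8_67 and at 19.64, 19.58 and 18.89 FPKM in OEA8_69. Each of the 3 groups was thus apart from the others, with OEA8_67 lowest and OEA8_69 between. S1pr1 fell in OEA8_67 to 74.6% of the control level, from 21.7 ± 0.804 to 16.2 ± 0.450 FPKM, a log2 difference of -0.40 (SE 0.04, 95% interval -0.50 to -0.30, limma adjusted p = 0.000177). In OEA8_69 it averaged 19.4 ± 0.417 FPKM or 89.3% of the control, a log2 difference of -0.16 (95% interval -0.25 to -0.06) that did not pass the threshold (limma adjusted p = 0.0502). It did pass in 4 of the 18 alternatives run, among them without OEA8_Ctrl replicate 3 (limma adjusted p = 0.0278). In the other 14 it did not pass, with limma adjusted p of up to 0.166. The call in OEA8_67 held in all 18 alternatives run, with limma adjusted p between 0.000126 and 0.00181. Between the mutants S1pr1 was higher in OEA8_69 by 0.25 on the log2 scale (SE 0.04, 95% interval 0.15 to 0.34, limma adjusted p = 0.0145). That call was lost without OEA8_67 replicate 1 or 2 or without OEA8_69 replicate 1 or 2, where the limma adjusted p was between 0.0619 and 0.0745. The order of S1pr1 was not that of Spns2, which was lowest in OEA8_69. S1pr1 is also expressed by endothelial cells, and the summed levels of genes listed as their markers are given above. Whether such cells were present, and any part they had in the level of S1pr1, was not tested.

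S1pr2 (chromosome 9, 20965952 to 20976793), a receptor known for restraining cell migration, was listed at 29.87, 30.74 and 29.3 FPKM in OEA8_Ctrl, at 30.46, 30.17 and 29.46 in OEA8_67 and at 29.31, 29.06 and 27.96 in OEA8_69. S1pr3 (chromosome 13, 51408618 to 51422797), a receptor of vascular and stromal cells, was listed at 20.94, 20.88 and 20.52 FPKM in OEA8_Ctrl, at 20.17, 21.91 and 21.43 in OEA8_67 and at 21.27, 22.42 and 22.98 in OEA8_69. For S1pr3 every OEA8_69 library lay above every control library, yet the log2 difference of 0.09 (SE 0.05, 95% interval -0.01 to 0.19) did not pass (limma adjusted p = 0.248). S1pr2 overlapped between each mutant and the control. The 2 remaining receptors were at or near 0, with S1pr4 between 0 and 0.16 FPKM and S1pr5 between 0 and 0.02 FPKM over the 9 libraries.

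Of the summed FPKM of S1pr1, S1pr2 and S1pr3, S1pr1 made up 29.9 ± 0.787% in OEA8_Ctrl, 24.02 ± 0.682% in OEA8_67 and 27.5 ± 0.460% in OEA8_69. S1pr2 ranked first in every library. S1pr1 ranked above S1pr3 in the 3 control libraries and below it in all 6 mutant libraries. In OEA8_Ctrl 1 to 3 the gap between S1pr1 and S1pr3 was small, 22.61 against 20.94, 21.34 against 20.88 and 21.12 against 20.52 FPKM. The sum of the 3 receptors was 72.4 ± 1.32 FPKM in OEA8_Ctrl, 67.4 ± 0.678 in OEA8_67 and 70.4 ± 0.629 in OEA8_69 (SD, n = 3).

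**Figure D2:**
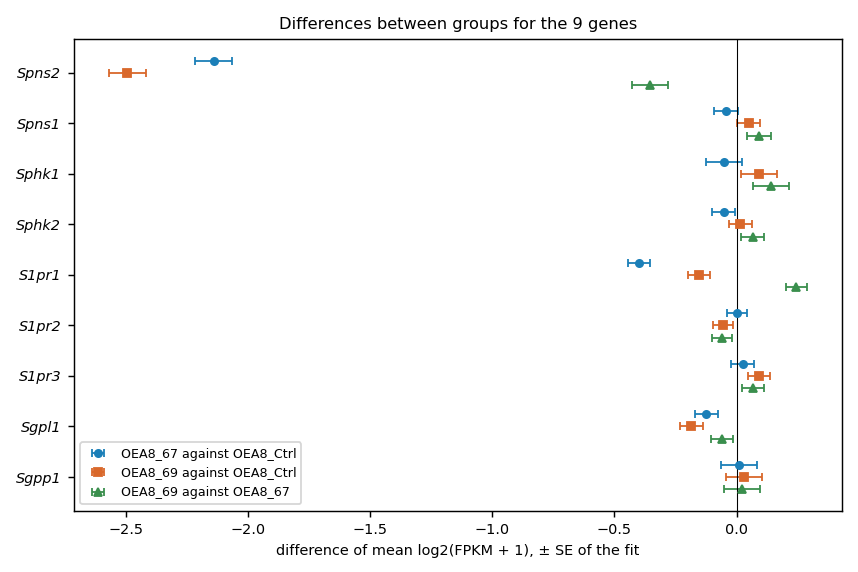
Differences between groups for the 9 genes in mean log2(FPKM + 1) (horizontal axis), with the SE of the fit; circles are OEA8_67 against OEA8_Ctrl, squares OEA8_69 against OEA8_Ctrl and triangles OEA8_69 against OEA8_67. Spns2 lies at -2.14 and -2.49 against the control, S1pr1 at -0.40 and -0.16, Sgpl1 at -0.12 and -0.18, and the other genes lie within 0.14 of 0.

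S1P is removed for good by the lyase Sgpl1, which cleaves it in the endoplasmic reticulum, and is turned back into sphingosine by the phosphatase Sgpp1. Sgpl1 (chromosome 10, 61098642 to 61147684) was listed at 37.62, 37.95 and 35.35 FPKM in OEA8_Ctrl, at 34.82, 33.64 and 33.06 in OEA8_67 and at 32.23, 33.85 and 31.17 in OEA8_69. The lowest control library lay above all mutant libraries, and the mutants overlapped each other. In OEA8_69 Sgpl1 fell to 87.7% of the control level, a log2 difference of -0.18 (SE 0.05, 95% interval -0.28 to -0.08, limma adjusted p = 0.0254). In OEA8_67 it stood at 91.5% of the control, a log2 difference of -0.12 (95% interval -0.22 to -0.02, limma adjusted p = 0.124). The call in OEA8_69 was lost without OEA8_Ctrl replicate 1 or 2 or OEA8_69 replicate 1 or 3, with limma adjusted p between 0.0738 and 0.103, and also with only the compared groups in the fit (limma adjusted p = 0.0635).

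Sgpp1 (chromosome 12, 75714248 to 75735729) was listed at 20.59, 20.64 and 17.12 FPKM in OEA8_Ctrl, at 20.89, 17.94 and 19.83 in OEA8_67 and at 20.62, 19.87 and 19.02 in OEA8_69. Its libraries spread as widely within a group as between groups, and it was not called (limma adjusted p = 0.950 and 0.841 against the control). The summed kinases amounted to 43.8 ± 5.27% of the summed Sgpl1 and Sgpp1 in OEA8_Ctrl, to 44.4 ± 2.17% in OEA8_67 and to 48.4 ± 3.73% in OEA8_69, spreads that overlap. The 6 members called in no comparison, Spns1, Sphk1, Sphk2, S1pr2, S1pr3 and Sgpp1, had log2 differences between -0.06 and 0.14 over the 3 comparisons. Their 95% intervals lay within -0.21 and 0.30, and their lowest limma adjusted p was 0.248.

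Ordered by mean FPKM over the 9 libraries, Sgpl1 came first at 34.4 ± 2.29, followed by S1pr2 at 29.6 ± 0.838 and S1pr3 at 21.4 ± 0.907 (SD over 9 libraries). Sgpp1 followed at 19.6 ± 1.33, S1pr1 at 19.1 ± 2.45 and Sphk2 at 18.4 ± 0.679 FPKM. Spns1 at 13.7 ± 0.572, Sphk1 at 6.10 ± 0.516 and Spns2 at 2.86 ± 3.30 FPKM were the lowest. Sgpl1 was above S1pr2, S1pr2 above S1pr3, Sphk2 above Spns1 and Spns1 above Sphk1 in 9 of 9 libraries. The place of S1pr1 depended on the group. It lay above Sgpp1 in the 3 control libraries and below it in the 6 mutant libraries, and above Sphk2 in the 3 control libraries and below it in the 3 OEA8_67 libraries. Spns2 lay above Sphk1 in the 3 control libraries and below it in the 6 mutant libraries. Averaged over the libraries, 14.2% of tested genes stood lower than Spns2 and 79.5% lower than Sgpl1.

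A list of 66 other genes of sphingolipid metabolism, S1P transport and receptor coupling was examined beside the members, of which 54 were high enough to be tested. In OEA8_67 against OEA8_Ctrl 4 of the 54 were called, 0 higher and 4 lower, which is 7.41% beside 7.88% of all tested genes. In OEA8_69 against OEA8_Ctrl 7 were called, 2 higher and 5 lower, 13.0% beside 9.79%. Between the mutants 1 was called, higher in OEA8_69, 1.85% beside 3.16%. The median log2 differences of the 54 were -0.01, -0.04 and -0.03, and 45 genes were called in no comparison. The count in OEA8_67 was 9 without OEA8_Ctrl replicate 2, where 8.68% of all tested genes were called. The count in OEA8_69 was 11 without OEA8_Ctrl replicate 3, where 14.9% of all tested genes were called, and 4 without OEA8_69 replicate 2, where 6.65% were. Between the mutants it was 6 without OEA8_Ctrl replicate 3, where 8.63% of all tested genes were called, and 0 without 7 other single libraries.

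**Figure D3:**
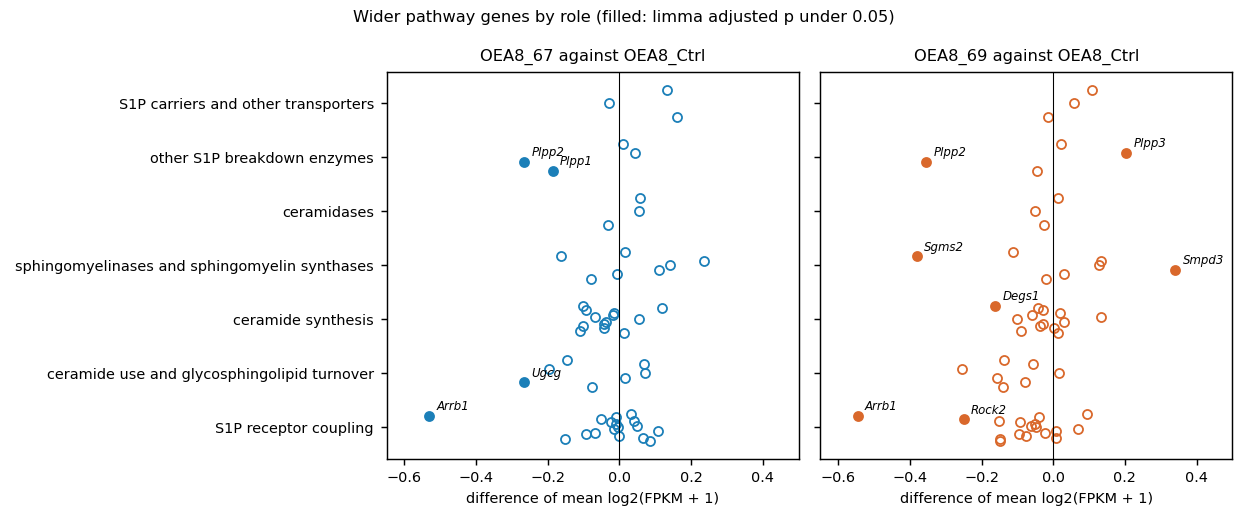
Difference in mean log2(FPKM + 1) (horizontal axis) of the 54 tested genes of the wider list, by role (rows), for OEA8_67 (left) and OEA8_69 (right) against OEA8_Ctrl; filled points passed limma at an adjusted p under 0.05. Most points lie near 0, 4 are filled on the left and 7 on the right, and Arrb1 and Plpp2 are filled on both sides.

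In the receptor coupling group, Arrb1, which encodes a beta-arrestin that desensitises and internalises G-protein-coupled receptors, was listed at 4.4, 4.38 and 3.93 FPKM in OEA8_Ctrl. It stood at 2.72, 2.55 and 2.6 FPKM in OEA8_67 and at 2.73, 2.58 and 2.45 FPKM in OEA8_69. Both mutants were below every control library and overlapped each other. Arrb1 fell by 0.53 on the log2 scale in OEA8_67 (SE 0.06, limma adjusted p = 0.000295) and fell by 0.55 in OEA8_69 (SE 0.06, limma adjusted p = 0.000174). Rock2, a kinase that drives actomyosin contraction, fell by 0.25 in OEA8_69 (limma adjusted p = 0.0195), with controls between 25.55 and 30.54 FPKM and OEA8_69 between 22.94 and 24.63. This call was lost without OEA8_Ctrl replicate 1 or 2 or OEA8_69 replicate 2 or 3, with limma adjusted p between 0.0623 and 0.0750, and with only the compared groups in the fit (limma adjusted p = 0.0546). The other 15 of the 17 coupling genes were called in no comparison. The most abundant were Gnai2, the Gi subunit through which S1pr1 signals, at 424.9 ± 29.7 FPKM, Rhoa at 247.1 ± 5.94 and Rac1 at 222.0 ± 7.06 over the 9 libraries.

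Among the other enzymes that break down S1P, the lipid phosphate phosphatases of the cell surface moved in different directions. Plpp2 was listed at 24.61, 25.68 and 27.97 FPKM in OEA8_Ctrl, at 21.45, 22.11 and 20.99 in OEA8_67 and at 20.39, 20.45 and 19.66 in OEA8_69, with no overlap between any groups. It fell by 0.26 on the log2 scale in OEA8_67 (SE 0.05, limma adjusted p = 0.00812) and fell by 0.35 in OEA8_69 (SE 0.05, limma adjusted p = 0.000908). Plpp3, which limits extracellular lysophospholipid signals in vessels, was listed at 32.18, 30.77 and 30.09 FPKM in OEA8_Ctrl, at 32.32, 32.02 and 31.52 in OEA8_67 and at 35.67, 36.04 and 35.9 in OEA8_69. It rose in OEA8_69 against the control by 0.20 on the log2 scale (SE 0.04, limma adjusted p = 0.00638). It was also higher than in OEA8_67, by 0.16 (SE 0.04, limma adjusted p = 0.0487), a call lost without any library of either mutant or OEA8_Ctrl replicate 1, with limma adjusted p between 0.0555 and 0.163, and with quantile normalization or no trend (limma adjusted p = 0.0669 and 0.0806). Plpp1 fell by 0.19 in OEA8_67 (limma adjusted p = 0.0325), with values of 22.8 to 24.57 FPKM beside 26.64 to 28.55 in the control. That call was lost without OEA8_Ctrl replicate 1 or 3, any OEA8_67 library or OEA8_69 replicate 1, with limma adjusted p between 0.0533 and 0.129, with only the compared groups in the fit (limma adjusted p = 0.0764) and with no trend (limma adjusted p = 0.0516). Aldh3a2, which oxidises the aldehyde that the lyase releases, averaged 24.05 ± 0.539 FPKM and was not called.

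The genes that make and use ceramide, from which sphingosine is released, held 2 of the 9 called genes of the list, and other genes high in each role are given as levels. Degs1, the desaturase of the last step of ceramide synthesis, was the highest of its role at 128.6 ± 6.70 FPKM. It fell in OEA8_69 by 0.16 on the log2 scale (limma adjusted p = 0.0155), with values of 120.0 to 124.9 FPKM beside 133.7 to 139.3 in the control, a call lost without OEA8_69 replicate 2 or 3 (limma adjusted p = 0.0607 and 0.0694) or with only the compared groups in the fit (limma adjusted p = 0.0585). The ceramide synthases Cers2 at 74.0 ± 1.73 and Cers5 at 58.3 ± 2.36 FPKM followed it and were not called. Ugcg, which attaches glucose to ceramide, fell in OEA8_67 by 0.27 (SE 0.05, limma adjusted p = 0.00699), from between 13.66 and 14.96 FPKM to between 11.5 and 12.13, while OEA8_69 at 13.32 to 13.98 overlapped the control. The difference of Ugcg between the mutants, 0.19, did not pass (limma adjusted p = 0.0679), nor did it in 16 of 18 alternatives, with limma adjusted p of up to 0.211. It did pass without OEA8_Ctrl replicate 3 (limma adjusted p = 0.0204) and with only the compared groups in the fit (limma adjusted p = 0.0301). In these 2 settings 8.63% and 8.13% of all tested genes were called between the mutants. Gltp, a glycolipid transfer protein, averaged 29.2 ± 1.96 FPKM and was not called.

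Smpd3, a neutral sphingomyelinase, was listed at 1.75, 1.54 and 1.5 FPKM in OEA8_Ctrl, at 1.81, 1.74 and 1.85 in OEA8_67 and at 2.38, 2.13 and 2.35 in OEA8_69. It rose in OEA8_69 by 0.34 on the log2 scale (SE 0.07, limma adjusted p = 0.00716). Sgms2, the sphingomyelin synthase of the plasma membrane, fell in OEA8_69 by 0.38 (SE 0.09, limma adjusted p = 0.0186), from between 5.0 and 5.94 FPKM to between 3.47 and 4.39. The Sgms2 call was lost without OEA8_Ctrl replicate 1 or 2 or OEA8_69 replicate 2, with limma adjusted p between 0.0607 and 0.0753, and with no filter on low values (limma adjusted p = 0.0530). The sphingomyelinases Smpd1 at 37.9 ± 1.27, Smpd4 at 16.0 ± 1.02 and Smpd2 at 11.9 ± 0.891 FPKM were higher in level and were not called. The ceramidases, which release sphingosine, were led by the lysosomal Asah1 at 86.5 ± 3.86 FPKM, followed by Asah2 at 7.30 ± 0.491 and Acer3 at 4.64 ± 0.385, and none of the 3 was called.

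Transporters of the wider list were not called or were too low to be tested. Abcc1 and Abcg2, ABC transporters that have been reported to export S1P, averaged 36.1 ± 2.51 and 32.1 ± 1.98 FPKM, and Abca1, another, 4.15 ± 0.520 FPKM. None of the 3 was called. Mfsd2b, the S1P exporter of red cells and platelets, was listed at 0.29, 0.31 and 0.48 FPKM in OEA8_Ctrl, at 0.12, 0.16 and 0.28 in OEA8_67 and at 0.25, 0.3 and 0.23 in OEA8_69. Apom, which carries S1P on lipoproteins, did not exceed 0.23 FPKM.

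The genes beside Spns2 on chromosome 11 were examined for differences in the same libraries. Spns3, a paralogue whose annotated span is separated from that of Spns2 by 8176 bases, was listed at 0.2, 0.41 and 0.32 FPKM in OEA8_Ctrl. It stood at 0.04 FPKM in all 3 OEA8_67 libraries and at 0.04, 0.05 and 0.04 FPKM in OEA8_69. These levels are low, but every mutant library was below every control library. Spns3 was under the filter, and in the fit without the filter its log2 differences were -0.33 (SE 0.05) in OEA8_67 and -0.33 (SE 0.05) in OEA8_69. Its mutant values lie near 0 and are rounded to 2 decimals, so their spread reflects the rounding and no p-value is given. On the other side Mybbp1a, a nuclear transcriptional co-regulator, overlaps the 3′ end of Spns2 by 133 bases on the opposite strand. It was listed at 53.3, 52.55 and 53.12 FPKM in OEA8_Ctrl, at 56.58, 58.74 and 56.61 in OEA8_67 and at 50.6, 51.91 and 52.46 in OEA8_69. Its differences did not pass (limma adjusted p = 0.0873 and 0.591 against the control and 0.0535 between the mutants). Whether counting used strand is not stated, so reads from the overlap cannot be assigned to either gene with certainty.

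The neighbours farther out did not share the pattern of Spns2. Ube2g1, Ankfy1 and Cyb5d2, a ubiquitin-conjugating enzyme, an endosomal protein and a cytochrome b5 domain protein, overlapped between all groups and were not called (lowest limma adjusted p = 0.281). Their ranges over the 9 libraries were 16.0 to 16.95, 18.16 to 21.91 and 3.11 to 3.52 FPKM. Tekt1 was listed at 0 in every library, Smtnl2 did not exceed 0.24 FPKM and Ggt6 did not exceed 0.05 FPKM.

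**Figure D4:**
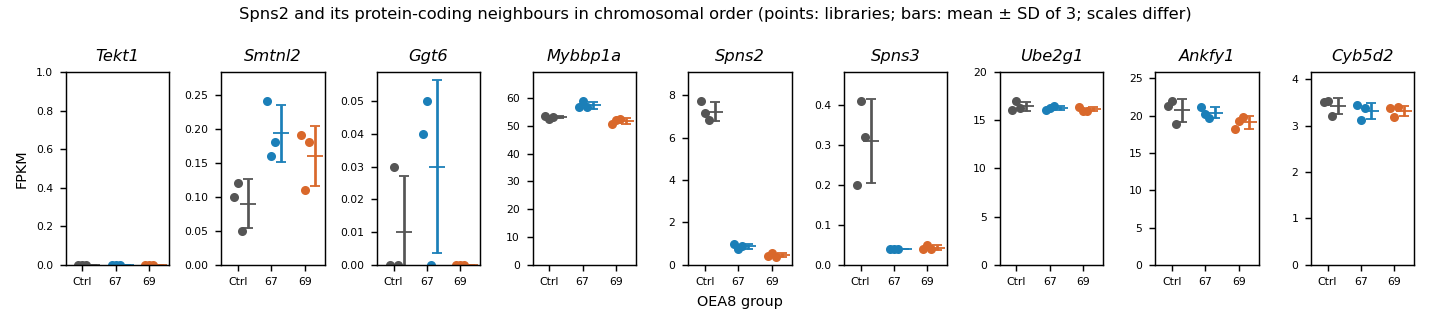
FPKM (vertical axes, with different scales from 0) of Spns2 and its 4 protein-coding neighbours on each side, in chromosomal order, by OEA8 group; points are libraries, bars are the mean ± SD of 3. Spns2 and, at a far lower level, Spns3 are lower in every mutant library, while Ube2g1, Ankfy1 and Cyb5d2 overlap between the groups.

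The tested genes whose profile was nearest to that of Spns2 were found by the root mean square, over the 9 libraries, of the difference between the genes in log2(FPKM + 1) after subtracting the mean of OEA8_Ctrl. They were selected for their likeness to Spns2, so their levels are given with no test. Icam2, an adhesion molecule of endothelial cells and platelets, was nearest at 0.24 and was listed at 3.68, 3.15 and 3.36 FPKM in OEA8_Ctrl, 0.14, 0.1 and 0 in OEA8_67 and 0, 0.05 and 0 in OEA8_69. Cd53, a leukocyte tetraspanin, followed at 0.26, with means of 4.66 ± 0.365, 0.487 ± 0.0808 and 0.283 ± 0.0833 FPKM. Cd93, a surface receptor of endothelial and myeloid cells that is also on the endothelial list, was at 0.31, with 5.76 ± 0.428, 0.92 ± 0.0624 and 0.593 ± 0.0208 FPKM.

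Lmo1, a LIM-only transcriptional cofactor, was at 0.36 from Spns2 and Myct1, a gene of endothelial and hematopoietic progenitors, at 0.40. Lmo1 averaged 8.28 ± 0.863, 1.57 ± 0.560 and 1.19 ± 0.386 FPKM, and Myct1 7.55 ± 0.313, 1.88 ± 0.156 and 0.98 ± 0.176 FPKM in OEA8_Ctrl, OEA8_67 and OEA8_69. Adgrg1, an adhesion G-protein-coupled receptor, was at 0.47, Adam8, a metalloprotease of leukocytes, at 0.49 and Ctla2a, a protease inhibitor, at 0.49. Their control means of 12.7 ± 1.27, 6.02 ± 0.231 and 24.6 ± 1.21 FPKM compare with 2.75 ± 0.238, 0.89 ± 0.0458 and 5.80 ± 0.185 FPKM in OEA8_69. Among the 8 genes Icam2 and Lmo1 overlapped between the mutants, and the other 6 were lower in every OEA8_69 library than in every OEA8_67 library, as Spns2 was. None of the 8 is a member of the S1P system or of the wider list.

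**Figure D5:**
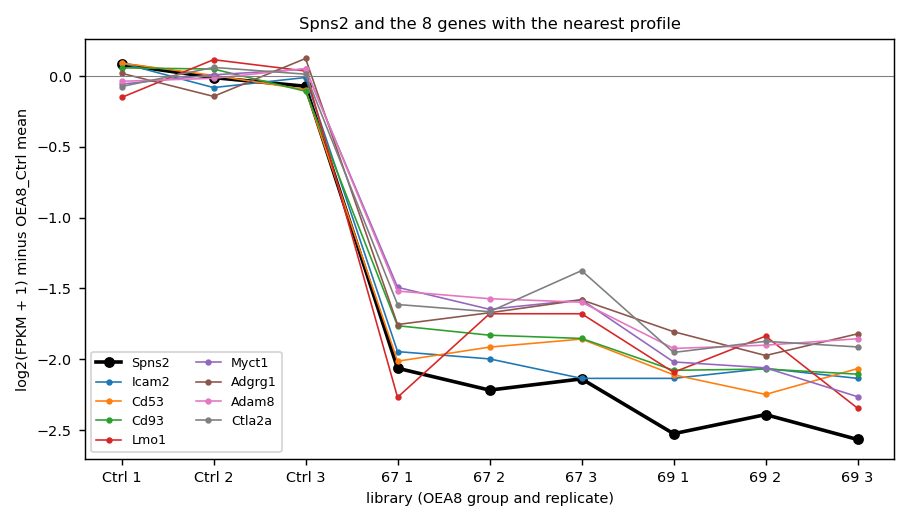
Log2(FPKM + 1) minus the gene's own OEA8_Ctrl mean (vertical axis) in each library (horizontal axis) for Spns2 (black) and the 8 genes with the nearest profile; lines join the points of one gene only as a guide, since libraries of a group have no order. All 9 genes lie near 0 in OEA8_Ctrl and below -1 in every mutant library, with Spns2 lowest in OEA8_69.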

How the data were processed

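TRIzol-extracted RNA was sequenced on the DNBSEQ platform. Alignment tools listed in the submitters' processing notes are Bowtie2 2.2.5 and HISAT2 2.0.4, with build mm10, and the study's methods name RSEM for quantification, without a version in the sources used here. The authors deposited FPKM per gene and library, rounded to 2 decimals, in 1 table with their group means, which were used only to check the columns. Read counts were not used here, so the depth is unknown and no count model was run.

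FPKM was transformed to log2(FPKM + 1), and the 12012 genes averaging 0.5 FPKM or more were tested in 1 model over the 3 groups with limma 3.58.1 (R 4.3.3, empirical Bayes with a trend). The study's methods name no test for this experiment beyond a general comparison of groups. P-values were adjusted by Benjamini-Hochberg over all tested genes, and an adjusted p under 0.05 was a call. Groups came from the sample labels. The members and lists were chosen with earlier results of these data known, so no p-value over a list is given and Spns2 has none. Named were all members, every called gene and the 3 highest of each role of the wider list, the 8 genes nearest to Spns2, 4 neighbours on each side, S100a8 and defining markers. The values of 1 gene that this rule names are left out. Of the gene identifiers, 19179 matched RefSeq on GRCm38.p6, which gave positions and promoters. The procedure was tested on simulated data. Alternatives were pseudocounts of 0.1 and 0.5, quantile normalization, median-of-ratios scaling, no filter or one at 5 FPKM, no trend, a replicate block, a fit of the compared groups alone, and leaving out each library in turn. Python 3.11.15, numpy 2.4.6, pandas 2.3.3 and matplotlib 3.10.9 were used for summaries and figures.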

Additional observations from a re-analysis of the deposited data

Results flagged for a closer look

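S1pr1 differed between the mutants, with a log2 difference of 0.25 in OEA8_69 against OEA8_67 (limma adjusted p = 0.0145), higher in 3 of 3 OEA8_69 libraries than in any OEA8_67 library. Plpp3 also differed between them, by 0.16 on the log2 scale (limma adjusted p = 0.0487), with 3 of 3 OEA8_69 libraries above every OEA8_67 library. Of all tested genes, 14.7% were likewise higher in OEA8_69 with no overlap between the mutants. The S1pr1 call was lost in 4 of 18 alternatives and the Plpp3 call in 10 of 18, with limma adjusted p of up to 0.0745 and 0.163. Both differences were tested directly between the mutants.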

How the results depend on the processing

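The log2 difference of Spns2 grew with a smaller pseudocount, as the scale is built: with 0.5 FPKM it was -2.50 in OEA8_67 and -3.01 in OEA8_69 against OEA8_Ctrl and -0.51 between the mutants, and with 0.1 FPKM it was -2.92, -3.71 and -0.79. The filter at 5 FPKM removed Spns2, so it has no value there. Leaving out each library gave -2.18 to -2.10, -2.55 to -2.45 and -0.41 to -0.32. Of 432 values of the other members under an alternative, 404 kept their direction and side of the threshold, 15 reversed, 9 lost a call and 4 gained one. Besides Spns2, the members called in OEA8_69 against OEA8_Ctrl numbered 2 without the filter, 2 with median-of-ratios scaling and 2 with quantile normalization, where S1pr1 passed (limma adjusted p = 0.0465, 0.0356 and 0.0444), 0 with only the compared groups, and 0 to 2 with a library left out. Those between the mutants numbered 0 to 1 with a library left out. The called genes of the wider list numbered 4 with the filter at 5 FPKM in OEA8_69 against OEA8_Ctrl, where fewer genes were tested, and 4 to 11 with a library left out, and 3 to 9 in OEA8_67. Between the mutants they numbered 0 with quantile normalization, 0 with no trend, 5 with only the compared groups and 0 to 6 with a library left out. The cause was not tested.

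Differences near 0 changed sign. Median-of-ratios scaling gave -0.0155 for S1pr2 and -0.00859 for Sgpp1 in OEA8_67, and -0.000985 for Sphk2 in OEA8_69, against OEA8_Ctrl. With a library left out, the ranges in OEA8_67 were -0.0862 to 0.0031 for Sphk1, -0.0127 to 0.0208 for S1pr2, -0.0752 to 0.0673 for Sgpp1 and -0.12 to 0.0020 for Rock2. In OEA8_69 they were -0.0058 to 0.0524 for Sphk2 and -0.0536 to 0.0744 for Sgpp1, and between the mutants -0.0361 to 0.0684 for Sgpp1 and -0.0438 to 0.0125 for Arrb1.

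Samples share only a replicate number: the correlation of their deviations from the group means lay between -0.25 and 0.15 for 9 pairs with the same number and between -0.19 and 0.28 for 18 pairs with different numbers. With the replicate block the members' counts were unchanged, the Plpp1 call in OEA8_67 was lost (limma adjusted p = 0.0627), and 0 genes of the wider list were called between the mutants, where Plpp3 did not pass (limma adjusted p = 0.0880). FPKM keeps no read depth, so counting error cannot be given, and values near 0 rest on few reads and 2 decimals.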
